A study of Mus musculus with 9 samples.

Results

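The genes of glycolysis, the pentose phosphate pathway and the hypoxia response were followed as 34 named members among the 17266 genes of a bulk RNA-seq table from mouse bone marrow cells, and all 34 passed the filter on low values that left 13750 genes to test. Members were taken by symbol from a list of pathway genes that was drawn up with earlier results of these data known. The cells were lineage-negative marrow, that is, marrow depleted of mature blood cells on magnetic beads, from untreated female C57B/6 mice 6 weeks of age. All 3 groups, the controls included, were infected with a MigR1 retrovirus carrying IRES-GFP, grown for 5 days in RPMI with IL-3, IL-6 and SCF, sorted for GFP and sequenced from polyadenylated RNA. One group received the vector with no fusion (empty vector), one the fusion ETV6-NCOA2 and one the fusion KAT6A-NCOA2, with 3 libraries each. Both fusions join part of NCOA2, a coactivator of nuclear receptors, to a partner known from leukemia: ETV6 is a repressor of transcription and KAT6A a histone acetyltransferase. Expression was driven by the retrovirus, not by the genes' own promoters, and the labels do not say whether the 3 libraries of a group came from separate mice or cultures. The p-values below therefore reflect only how far libraries of a group spread, and that spread may be technical.

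Glycolysis splits glucose into pyruvate in the cytosol. Hexokinases trap glucose as its phosphate, phosphofructokinase commits it to the pathway, and the enzymes from aldolase to pyruvate kinase yield ATP. Pyruvate is then either reduced to lactate or passed to the mitochondrial pyruvate dehydrogenase complex, while the pentose phosphate pathway draws off glucose phosphate to make NADPH and ribose. When oxygen is short, the prolyl hydroxylases that mark the transcription factor HIF for destruction slow down, and HIF binds a short core sequence near genes for glucose use, vessel growth and matrix hydroxylation. Activated macrophages and fast-growing blood progenitors are both known for high glycolytic flux.

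The deposited values were normalized counts, each library divided by 1 factor, and 17070291 to 20377795 reads per library were recovered from them. The normalized totals differed between groups: 16.51 to 17.74 M in the empty vector, 17.47 to 18.40 M for ETV6-NCOA2 and 18.99 to 19.95 M for KAT6A-NCOA2. Scaling each library to its total reads instead moved the median log2 fold change of all tested genes by -0.08 with ETV6-NCOA2 and by -0.19 with KAT6A-NCOA2, so members' changes below are also given under that scaling where it turns a direction or a call. As a share of all reads, the 34 members together took 0.831% ± 0.0136 (SD, n = 3) in the empty vector, 0.833% ± 0.0593 for ETV6-NCOA2 and 0.820% ± 0.0203 for KAT6A-NCOA2, with overlapping ranges. The cell mixture moved with the groups. The summed normalized counts of 6 mast cell and basophil markers ran from 43134 to 87963 in the empty vector, from 17630 to 27730 with ETV6-NCOA2 and from 5868 to 16891 with KAT6A-NCOA2, and those of 7 proliferation genes from 9918 to 15817, 7217 to 8150 and 4719 to 5798. The 7 macrophage markers summed to 119080 to 151966, 131956 to 160867 and 158511 to 182341, and 6 blood progenitor markers (among them Kit and Cd34) to 16104 to 22862, 10854 to 13826 and 7612 to 11078. Markers of mature cells were thus present in every library after the 5 days of culture that followed lineage depletion. With KAT6A-NCOA2 against the empty vector, 6 of 6 mast cell and basophil, 5 of 5 tested neutrophil granule, 7 of 7 proliferation and 3 of 6 progenitor markers were lower and 2 of 7 macrophage markers higher past the test. Of all tested genes 13.7% were lower and 11.6% higher. Neutrophil granule markers summed to 12196 to 17685 in the empty vector and to 827 to 1456 with KAT6A-NCOA2, and 4 of 6 erythroid and 3 of 4 tested stromal markers were also lower and 1 of 5 megakaryocyte markers higher, while none of 3 mitochondrial transcripts passed. With ETV6-NCOA2 the markers called lower were 4 of 6 mast cell and basophil, 3 of 5 tested neutrophil granule and 5 of 7 proliferation genes. So were 2 of 6 progenitor and 2 of 6 erythroid markers, against 1.82% of all tested genes, and no listed marker was higher. T and B cell marker sums did not exceed 50.2 and 13.1 normalized counts. In bulk RNA, fewer cells of a type and less RNA per cell cannot be told apart, and the part of the cell mixture in the results below was not tested.

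The libraries carrying the number 1 stood apart for these genes. In all 3 groups at once, library 1 was the lowest of its group for 14 of 34 members (41.2%), against 9.63% of all tested genes, and the highest for 1 member, Hk1 (2.94%), against 11.3%. Library 2 was the highest in all 3 groups for 6 members (17.6%), against 4.64% of tested genes. Library 1 also had the highest summed progenitor, mast cell, neutrophil granule and proliferation markers in each of the 3 groups. The labels do not say what the numbers mark, and the calls that are lost without these 3 libraries, an alternative chosen after seeing the data, are named below.

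To show where the hypoxia factor's core sequence lies near these genes, ACGTG or GCGTG was looked for on both strands in the 250 bases before each annotated start, from RefSeq promoters on GRCm38.p6. At least 1 match was found for 31 of the 33 members with a promoter in that table (93.9%), for 60.6% of the 10059 tested genes with one, and in 38.6% of all 32851 promoters. A match describes these letters only and is no evidence of binding. The windows below belong to 4 members that rose with KAT6A-NCOA2 and to Ldha, which did not pass the test although its window held 5 matches, counting the palindrome CACGTG once on each strand. They are written 5′ to 3′ in the gene's direction with the matches in capitals, read on either strand. Egln3 lies at chr12:54203875-54204124 on the minus strand, and the others on the plus strand at chr10:59323046-59323295 (P4ha1), chr7:110627407-110627656 (Adm), chr2:71872974-71873223 (Pdk1) and chr7:46845554-46845803 (Ldha). Pdk1 and Ldha each have 1 other annotated start. None of the 5 windows overlaps an annotated exon of its own gene, and exons of other genes were not checked.
Egln3: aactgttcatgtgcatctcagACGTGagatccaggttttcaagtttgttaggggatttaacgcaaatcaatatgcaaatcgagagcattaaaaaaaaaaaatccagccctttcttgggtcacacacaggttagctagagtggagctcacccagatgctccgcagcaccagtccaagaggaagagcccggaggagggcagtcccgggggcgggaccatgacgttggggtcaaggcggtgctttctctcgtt
P4ha1: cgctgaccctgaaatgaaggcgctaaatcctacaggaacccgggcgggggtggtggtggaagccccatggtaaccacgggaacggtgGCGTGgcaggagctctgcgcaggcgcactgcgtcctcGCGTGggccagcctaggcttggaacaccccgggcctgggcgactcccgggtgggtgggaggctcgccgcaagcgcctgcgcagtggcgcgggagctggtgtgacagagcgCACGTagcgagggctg
Adm: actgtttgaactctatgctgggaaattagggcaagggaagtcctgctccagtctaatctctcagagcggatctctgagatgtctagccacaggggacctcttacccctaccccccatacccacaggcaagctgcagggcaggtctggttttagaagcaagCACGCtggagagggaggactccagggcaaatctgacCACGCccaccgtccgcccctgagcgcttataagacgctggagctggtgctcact
Pdk1: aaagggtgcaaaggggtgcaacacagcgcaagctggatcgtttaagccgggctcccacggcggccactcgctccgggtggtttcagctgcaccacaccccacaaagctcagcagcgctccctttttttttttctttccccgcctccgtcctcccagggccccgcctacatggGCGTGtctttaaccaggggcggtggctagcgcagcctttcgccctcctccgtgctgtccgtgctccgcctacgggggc
Ldha: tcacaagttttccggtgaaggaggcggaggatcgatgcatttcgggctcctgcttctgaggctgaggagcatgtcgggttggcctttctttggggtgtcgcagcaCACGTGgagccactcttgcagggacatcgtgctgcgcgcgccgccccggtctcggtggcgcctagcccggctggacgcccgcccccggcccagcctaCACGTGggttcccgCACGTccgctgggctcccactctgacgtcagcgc

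With KAT6A-NCOA2, 4 of 9 hypoxia regulators and targets, 1 hexokinase and the single genes Pfkfb4, Pgam1, Ldhb and Pdk1 rose, while 2 other hexokinases and transketolase fell. Pfkfb4, Pgam1, Ldhb and Pdk1 did not pass when scaled to total reads. Of 34 members, 12 (35.3%) passed limma's test at an adjusted p below 0.05, against 25.4% of all tested genes. These were 9 higher members (Hk3, Pfkfb4, Pgam1, Ldhb, Pdk1, Egln3, P4ha1, Adm and Ndrg1; 11.6% of tested genes were higher) and 3 lower ones (Hk1, Hk2 and Tkt; 13.7% of tested genes were lower). Members' log2 fold changes ran from -0.46 to 1.76 with a median of 0.21, against a median of 0.02 over all tested genes, and 26 of 34 group means were higher, against 52.2% of tested genes. On the deposited scale, the KAT6A-NCOA2 and empty vector libraries did not overlap for 19 members that were higher and 6 that were lower. The shares of tested genes were 21.2% and 21.7%. Overlap was not counted after scaling to total reads. Among the 19, the log2 changes of Ldha and Eno1 turned negative under that scaling (-0.10 and -0.03), and the others stayed above 0. Scaled to total reads, 13 members passed (34.4% of tested genes did), but the split turned from 9 higher and 3 lower to 5 higher and 8 lower, the members' median became 0.02, and 20 of 34 means were higher. The split of all tested genes moved with it, from 1599 higher and 1889 lower to 666 and 4059. Members above the median of all tested genes numbered 26 of 34 under either scaling. Rescaling moves all genes by about the same amount, so this count could hardly differ between the scalings.

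**Figure D1:**
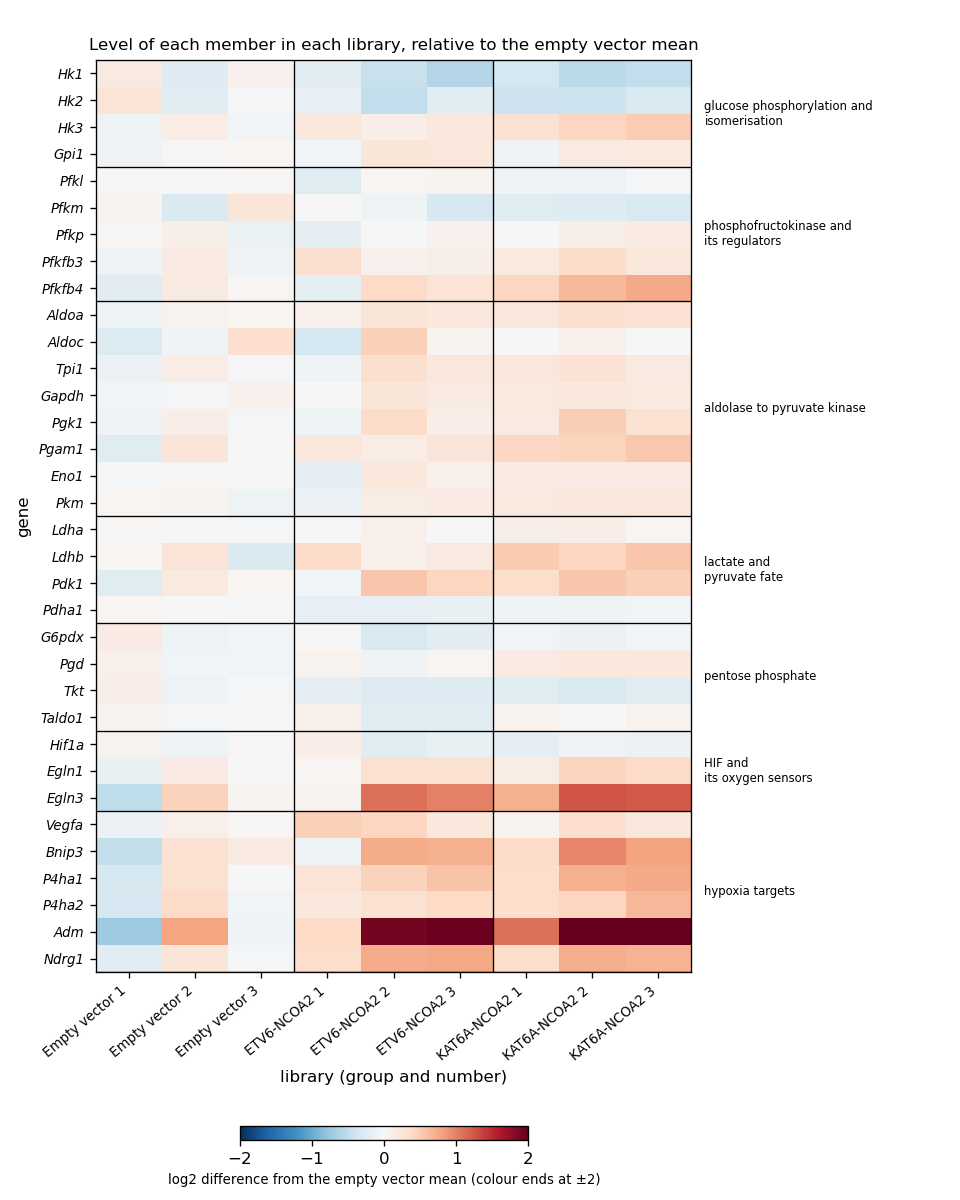
Colour gives each member's log2 normalized count (plus 1) in each of the 9 libraries minus its mean in the 3 empty vector libraries, with genes in rows by pathway step and colour limits of -2 and 2. Adm and Egln3 have the strongest colours with either fusion, Hk1 and Hk2 are below the empty vector mean with KAT6A-NCOA2, and within each group library 1 has the lowest value for Egln3, Bnip3, P4ha1, P4ha2, Adm and Ndrg1.

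**Figure D2:**
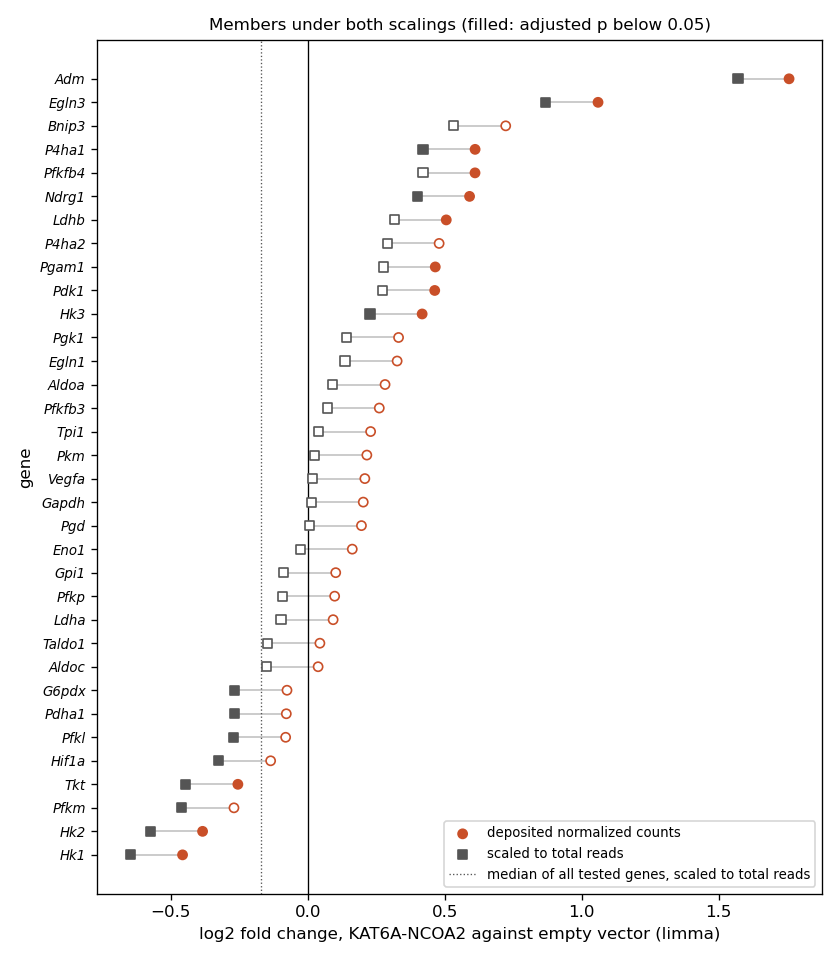
Log2 fold change of each of the 34 members with KAT6A-NCOA2 against the empty vector (3 libraries each), from the deposited normalized counts (circles) and after scaling to total reads (squares), filled where limma's adjusted p was below 0.05. The squares lie about 0.19 to the left throughout, so Eno1, Gpi1, Pfkp, Ldha, Taldo1 and Aldoc change sign, while the 5 filled squares on the right are Adm, Egln3, P4ha1, Ndrg1 and Hk3.

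This count rested on single libraries. Only 2 members passed without empty vector library 1 (12.9% of tested genes passed), 3 without empty vector library 3 (16.7%), 2 without KAT6A-NCOA2 library 2 (13.6%) and 1 without KAT6A-NCOA2 library 3 (13.7%), while 19 passed without empty vector library 2 (31.4%). Without the 3 libraries numbered 1, 10 members passed (16.5% of tested genes): Hk3, Pfkfb4, Pdk1, Egln3, Egln1, Bnip3, P4ha1, Adm and Ndrg1, higher, and Hk1, lower. Pgam1, Ldhb, Hk2 and Tkt lost their calls there. Hk3 was past the test in all 20 alternatives, Pgam1 in 17, and Hk1, Pfkfb4, Egln3, P4ha1, Adm and Ndrg1 in 16 each. Tkt, Hk2 and Ldhb were past it in 13 and Pdk1 in 9. No member that passed changed sign under any of them.

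The hexokinases, which commit glucose to the cell, moved in opposite directions. Hk1 (chr10:62268855-62379908, minus strand), the form found in most cell types, stood at 5191, 3846 and 4881 normalized counts in the empty vector, at 3932, 3391 and 3069 with ETV6-NCOA2, and at 3620, 3181 and 3267 with KAT6A-NCOA2. Every KAT6A-NCOA2 library lay below every control, and the change was -0.46 ± 0.12 (log2, SE, n = 3 against 3, limma adjusted p = 0.0206). With ETV6-NCOA2, library 1 lay above the lowest control and the change was -0.42 ± 0.12 (adjusted p = 0.0917). Hk2 (chr6:82725025-82774454, minus strand), the inducible form of muscle, fat and growing cells, had 1604, 1151 and 1326 normalized counts in the empty vector, 1207, 957.8 and 1164 with ETV6-NCOA2, and 1007, 997.6 and 1094 with KAT6A-NCOA2. It fell by 0.38 ± 0.12 on the log2 scale with KAT6A-NCOA2 (adjusted p = 0.0416), and the call was lost without empty vector library 1 or 3, any KAT6A-NCOA2 library or ETV6-NCOA2 library 3.

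Hk3 (chr13:55005985-55021385, minus strand), the hexokinase of myeloid blood cells, went the other way. It had 4272, 5093 and 4441 normalized counts in the empty vector, 5386, 5015 and 5340 with ETV6-NCOA2, and 5667, 6196 and 6551 with KAT6A-NCOA2. All 3 KAT6A-NCOA2 libraries exceeded the other 6, and Hk3 rose by 0.42 ± 0.09 (adjusted p = 0.00653), or by 0.23 ± 0.07 scaled to total reads (adjusted p = 0.0253). With ETV6-NCOA2 the change was 0.19 ± 0.09 (adjusted p = 0.237). Per kilobase of exon, and so free of library scaling, Hk3 made up 56.9%, 68.2% and 60.3% of the transcripts of the 3 hexokinases in the empty vector, 68.8%, 70.9% and 72.3% with ETV6-NCOA2, and 72.2%, 75.7% and 75.9% with KAT6A-NCOA2. Every empty vector library lay below every fusion library, with its library 2 close to the lowest of them. The share was picked with its values in view and carries no test. Its height depends on the length used, which joined all annotated exons of a gene and not only those of the transcripts present. The summed normalized counts of the 3 genes were 10602 ± 490 (SD, n = 3), 9821 ± 619 and 10527 ± 335, with overlapping ranges. Gpi1, which turns glucose phosphate into fructose phosphate, had 9430 ± 359, 10421 ± 1147 and 10146 ± 983 normalized counts and did not pass. Its log2 change with KAT6A-NCOA2 was 0.10, or -0.09 scaled to total reads.

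**Figure D3:**
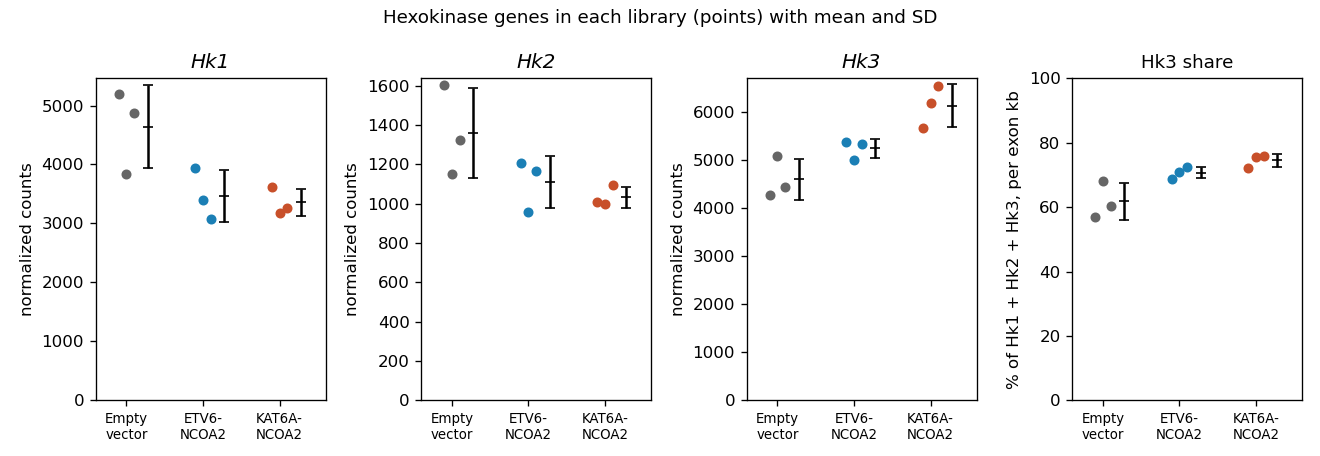
Normalized counts of Hk1, Hk2 and Hk3 in each library (points), and the share of Hk3 in the 3 hexokinases per exon kilobase in percent, with the mean and SD of 3 libraries beside each group. Hk1 and Hk2 are lower and Hk3 higher in the KAT6A-NCOA2 libraries than in every empty vector library, and the Hk3 share reaches 75.9%.

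Phosphofructokinase itself showed little, while 1 of its regulators rose. The subunits Pfkl, Pfkm and Pfkp did not pass in any comparison: with KAT6A-NCOA2 their changes were -0.08 ± 0.08, -0.27 ± 0.13 and 0.10 ± 0.09, although Pfkl and Pfkm passed as lower when scaled to total reads (adjusted p = 0.0417 and 0.0359). Under that scaling the change of Pfkp turned to -0.09 ± 0.08 (limma adjusted p = 0.409). Pfkfb4 (chr9:108991778-109032228, plus strand), an enzyme that makes and breaks the sugar bisphosphate that activates phosphofructokinase, had 331.7, 441.5 and 398.7 normalized counts in the empty vector, 343.8, 504.3 and 467.8 with ETV6-NCOA2, and 521.5, 610.8 and 653.3 with KAT6A-NCOA2. Every KAT6A-NCOA2 library lay above the other 6, and the gene rose by 0.61 ± 0.15 (adjusted p = 0.0165), 1.53-fold. Scaled to total reads its adjusted p was 0.0579. Its relative Pfkfb3 had 1920 ± 193, 2165 ± 191 and 2296 ± 142 normalized counts, and the KAT6A-NCOA2 change of 0.26 ± 0.09 did not pass (adjusted p = 0.0572).

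From aldolase to pyruvate kinase, 8 of 8 members had a higher mean with KAT6A-NCOA2 (52.2% of tested genes did), by 0.04 to 0.46 (median 0.22). Aldoc and Eno1 were lower when scaled to total reads (-0.15 and -0.03). Only 1 of the 8 passed, against 25.4% of tested genes. That one was Pgam1 (chr19:41911923-41918660, plus strand), phosphoglycerate mutase, with 368.0, 516.3 and 432.4 normalized counts in the empty vector, 507.9, 480.3 and 516.2 with ETV6-NCOA2, and 578.6, 594.0 and 629.9 with KAT6A-NCOA2. The KAT6A-NCOA2 libraries lay above all others, and Pgam1 rose by 0.46 ± 0.11 (adjusted p = 0.0127), with an adjusted p of 0.0502 scaled to total reads. Aldolase A, which cleaves the sugar bisphosphate, was the most abundant member per kilobase of exon, at an RPKM (reads scaled to the joined length of all annotated exons and to the library total) of 498 ± 26.1 in the empty vector, against 536 ± 39.4 for ETV6-NCOA2 and 530 ± 16.03 for KAT6A-NCOA2. On the normalized scale Aldoa had 24623 ± 1458, 28027 ± 1371 and 29906 ± 983, and neither fusion's libraries overlapped the controls, yet the adjusted p was 0.329 with ETV6-NCOA2 and 0.0655 with KAT6A-NCOA2. Tpi1 (triose phosphate isomerase), Gapdh, Pgk1 (phosphoglycerate kinase), Eno1 (enolase) and Pkm (pyruvate kinase) also lay above every control in all 3 KAT6A-NCOA2 libraries without passing, by 0.23, 0.20, 0.33, 0.16 and 0.22 with adjusted p from 0.0661 to 0.211. Scaled to total reads these 5 log2 changes lay between -0.03 and 0.14. The levels of several of these genes are uncertain because other loci carry near copies: 53.9% of the 50-base words of Pgk1 transcripts, 36.2% of Pgam1, 26.0% of Eno1, 25.8% of Pkm and 24.7% of Gapdh also occurred in transcripts of other genes, and how reads matching several places were counted is not given in the sources used here.

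At the branch after pyruvate, the lactate dehydrogenases differed in level and in call. Ldha, the form that favours lactate, was the second most abundant member per kilobase at an RPKM of 313 ± 11.2 in the empty vector, and had 17580 ± 430, 17920 ± 749 and 18741 ± 641 normalized counts. Its change of 0.09 ± 0.08 with KAT6A-NCOA2 did not pass (adjusted p = 0.457), although the 3 libraries lay above the controls on the deposited scale. Scaled to total reads the change of Ldha turned to -0.10 ± 0.09 (limma adjusted p = 0.396). Ldhb (chr6:142490249-142507957, minus strand), the form that favours pyruvate, stood at an RPKM of 5.12 ± 0.81. It had 138.6, 162.8 and 110.1 normalized counts in the empty vector, 176.6, 145.4 and 154.2 with ETV6-NCOA2, and 195.6, 182.9 and 199.9 with KAT6A-NCOA2. The KAT6A-NCOA2 libraries were the highest 3, and Ldhb rose by 0.50 ± 0.15 (adjusted p = 0.0287), with an adjusted p of 0.0906 scaled to total reads. Of its 50-base words, 20.99% occurred in 1 other gene.

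Pdk1 (chr2:71873224-71903858, plus strand), a kinase that switches pyruvate dehydrogenase off and a known HIF target, had 1107, 1503 and 1349 normalized counts in the empty vector, 1260, 1930 and 1755 with ETV6-NCOA2, and 1678, 1921 and 1824 with KAT6A-NCOA2. The KAT6A-NCOA2 libraries lay above the controls and Pdk1 rose by 0.46 ± 0.15 (adjusted p = 0.0483), a call that 11 of 20 alternatives lost, total-read scaling among them (0.27 ± 0.16, adjusted p = 0.202). Pdha1, the catalytic subunit that Pdk1 phosphorylates, was steady between libraries at 1729 ± 48.9, 1547 ± 10.3 and 1637 ± 31.4. On the deposited scale the 3 groups did not overlap and ETV6-NCOA2 was lowest, but the changes of -0.16 ± 0.06 and -0.08 ± 0.06 did not pass (adjusted p = 0.133 and 0.320). Scaled to total reads, the KAT6A-NCOA2 change of -0.27 ± 0.06 passed (adjusted p = 0.00715), that of ETV6-NCOA2 was -0.24 ± 0.06 (adjusted p = 0.0537), and the order of the fusions turned (difference 0.03 ± 0.06, adjusted p = 0.832).

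In the pentose phosphate pathway 1 of 4 members passed with KAT6A-NCOA2, near the 25.4% of all tested genes that did. Tkt (chr14:30548359-30574720, plus strand), transketolase, which moves carbon between the sugar phosphates of the pathway's reversible branch, had 8287, 7040 and 7331 normalized counts in the empty vector, 6564, 6294 and 6275 with ETV6-NCOA2, and 6382, 6115 and 6439 with KAT6A-NCOA2. All 6 fusion libraries lay below all controls. Tkt fell by 0.26 ± 0.08 on the log2 scale with KAT6A-NCOA2 (adjusted p = 0.0334), and its change with ETV6-NCOA2 was -0.24 ± 0.08 (adjusted p = 0.111). The oxidative enzymes differed from it and from each other: G6pdx, which starts the pathway, had 2469 ± 248, 2200 ± 251 and 2335 ± 66.5 normalized counts, and Pgd, the next dehydrogenase, 4563 ± 295, 4613 ± 235 and 5219 ± 98.6. Neither passed (adjusted p = 0.584 and 0.0667 with KAT6A-NCOA2), although the Pgd libraries lay above the controls. Scaled to total reads the change of G6pdx passed as lower (-0.27, adjusted p = 0.0488) and that of Pgd was 0.0050. Taldo1, transaldolase, had 7568 ± 248, 7025 ± 969 and 7800 ± 232. Its log2 change with KAT6A-NCOA2 was 0.04, or -0.15 scaled to total reads.

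The largest changes were in the hypoxia response, while the mRNA of HIF's own alpha subunit did not pass as higher or lower. Hif1a had 2121 ± 117, 2022 ± 275 and 1928 ± 52.5 normalized counts, a change of -0.14 ± 0.09 with KAT6A-NCOA2 (adjusted p = 0.300) that passed as lower when scaled to total reads (-0.33 ± 0.09, adjusted p = 0.0190). Egln3 (chr12:54178981-54203860, minus strand) is 1 of the prolyl hydroxylases that mark HIF and is itself a HIF target. It had 736.0, 1434 and 1085 normalized counts in the empty vector, 1105, 2246 and 2107 with ETV6-NCOA2, and 1707, 2495 and 2437 with KAT6A-NCOA2. The lowest KAT6A-NCOA2 library exceeded the highest control, and Egln3 rose 2.08-fold (1.06 ± 0.29, adjusted p = 0.0234). Within every group library 1 was lowest, and ETV6-NCOA2 library 1 lay inside the control range. The 1.66-fold change with that fusion did not pass (adjusted p = 0.189). Egln1, the main oxygen sensor of this enzyme family, had 1078 ± 116, 1253 ± 128 and 1352 ± 145, with an adjusted p of 0.0510 for KAT6A-NCOA2.

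Of the 6 hypoxia targets, 6 had a higher mean with either fusion, under both scalings. On the deposited scale 51.7% of tested genes did with ETV6-NCOA2 and 52.2% with KAT6A-NCOA2. With KAT6A-NCOA2 3 targets passed as higher, against 11.6% of tested genes. Each of these calls, like that of Egln3, was lost without empty vector library 1 or 3 or KAT6A-NCOA2 library 2 or 3. Adm (chr7:110627661-110629820, plus strand) encodes adrenomedullin, a vessel-widening peptide, and was the least abundant member per kilobase (an RPKM of 1.33 ± 0.67 in the empty vector). It had 20.1, 59.2 and 32.0 normalized counts in the empty vector, 44.9, 129.2 and 133.7 with ETV6-NCOA2, and 73.3, 138.8 and 154.3 with KAT6A-NCOA2, from 21 to 135 reads per library. The KAT6A-NCOA2 libraries lay above the controls, and Adm rose 3.38-fold (1.76 ± 0.48, adjusted p = 0.0225). P4ha1 (chr10:59323296-59373304, plus strand), a collagen prolyl hydroxylase subunit, had 2153, 3308 and 2684 normalized counts, then 3244, 3692 and 3989, then 3423, 4391 and 4525. It rose 1.53-fold with KAT6A-NCOA2 (0.61 ± 0.16, adjusted p = 0.0170), where the lowest library stood just above the highest control. Ndrg1 (chr15:66929318-66969640, minus strand), a stress and differentiation gene induced by low oxygen, had 2278, 3093 and 2565 normalized counts, then 3347, 4382 and 4475 with ETV6-NCOA2, then 3351, 4329 and 4251 with KAT6A-NCOA2. All 6 fusion libraries exceeded all controls, and the rise with KAT6A-NCOA2 was 1.51-fold (0.59 ± 0.15, adjusted p = 0.0154).

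Bnip3, a mitophagy receptor, had 532.4, 912.5 and 829.3 normalized counts in the empty vector, 690.7, 1238 and 1206 with ETV6-NCOA2, and 966.6, 1449 and 1294 with KAT6A-NCOA2. The KAT6A-NCOA2 libraries lay above the controls but the change of 0.72 ± 0.25 did not pass (adjusted p = 0.0600). Without the libraries numbered 1 it was 0.65 (adjusted p = 0.00282). P4ha2, the partner isoform of P4ha1, had 224.5 ± 58.2, 272.6 ± 18.02 and 308 ± 36.8 (adjusted p = 0.0560). Vegfa, the vessel growth factor, had 1113, 1291 and 1228 normalized counts in the empty vector, 1675, 1626 and 1392 with ETV6-NCOA2, and 1272, 1520 and 1406 with KAT6A-NCOA2. The ETV6-NCOA2 libraries lay above the controls and the KAT6A-NCOA2 libraries overlapped them, but the difference between the fusions did not pass (0.16 ± 0.09, adjusted p = 0.401). The mean log2 value of the 6 targets was 8.88, 9.59 and 9.24 in the empty vector, 9.51, 10.001 and 10.01 with ETV6-NCOA2, and 9.67, 10.10 and 10.12 with KAT6A-NCOA2. The library numbered 1 was the lowest in each group, and ETV6-NCOA2 library 1 lay below the highest control.

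**Figure D4:**
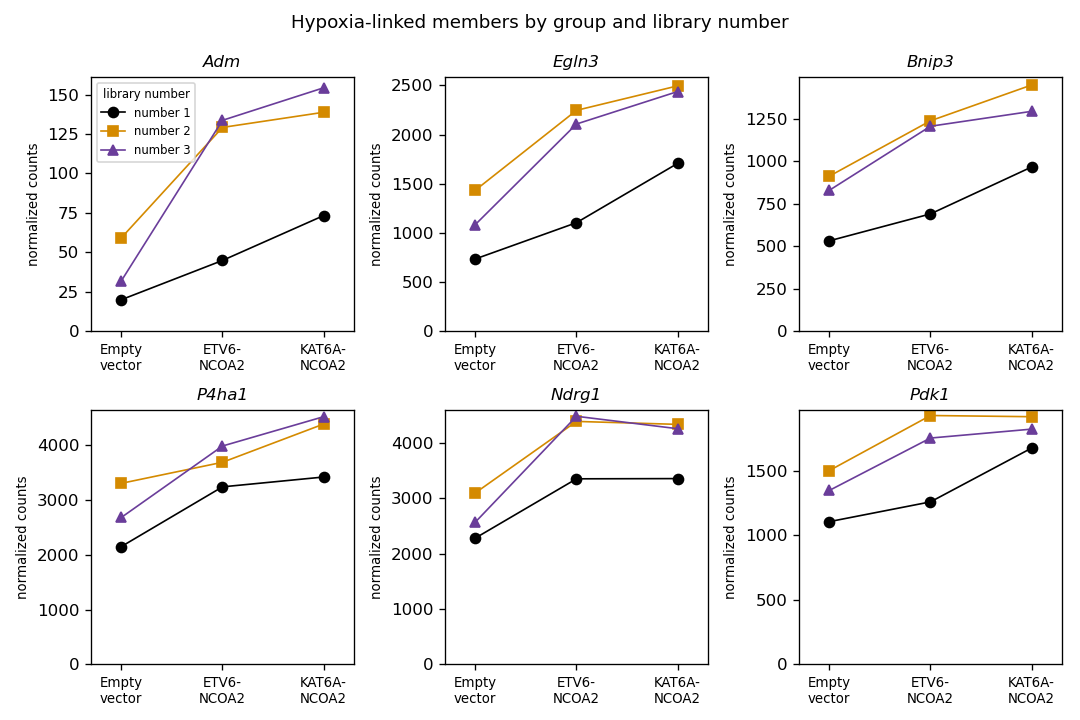
Normalized counts of Adm, Egln3, Bnip3, P4ha1, Ndrg1 and Pdk1 in each group, with libraries of the same number joined by a line as a guide only. Within each group library 1 (black circles) is the lowest for all 6 genes, and each line ends higher at KAT6A-NCOA2 than it starts at the empty vector.

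With ETV6-NCOA2 against the empty vector, no member passed. limma called 0 of 34, against 2.84% of all tested genes, and 10 members had an unadjusted p below 0.05 (20.6% of tested genes did). edgeR called 1 of them, Ndrg1 (3.68% of tested genes), DESeq2 called 5, namely Adm, Hk1, Ndrg1, Tkt and Vegfa (7.85%), and limma-voom 0 (3.21%). Scaled to total reads limma also called 0 (3.63% of tested genes). With the replicate number added to the fit as a block, limma called 8 (9.13% of tested genes). These were Adm, Bnip3, Egln3, Ndrg1, P4ha1, Pdk1 and Vegfa, higher, and Hk1, lower. The changes ran from -0.42 for Hk1 to 1.42 for Adm with a median of 0.14, and 24 of 34 means were higher, against 51.7% of tested genes, or 19 of 34 scaled to total reads. On the deposited scale the 2 groups did not overlap for 3 higher members, Aldoa, Vegfa and Ndrg1, and for 2 lower ones, Pdha1 and Tkt. The shares of tested genes were 9.01% and 12.5%. The lowest adjusted p values were 0.0517 for Ndrg1 (0.62 ± 0.15, 1.54-fold) and 0.0659 for Vegfa (0.37 ± 0.09, 1.29-fold). Without empty vector library 2, 9 members passed (12.8% of tested genes), 1 passed without ETV6-NCOA2 library 1 (1.59%) and 1 without KAT6A-NCOA2 library 1 (2.95%), and without the 3 libraries numbered 1, 4 passed (Adm, Bnip3, Egln3 and Ndrg1, all higher; 1.39% of tested genes). Both comparisons share the 3 control libraries, so their values are not independent.

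**Figure D5:**
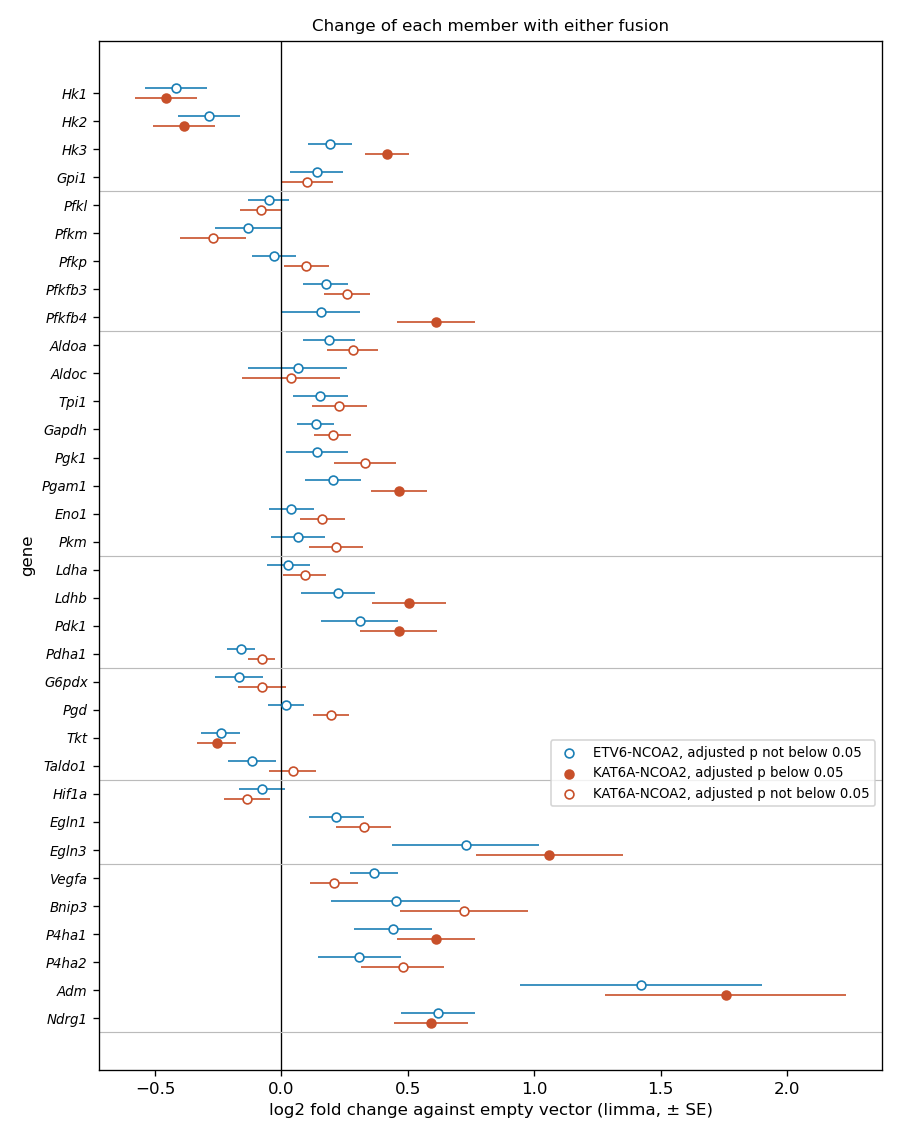
Log2 fold change against the empty vector (limma, points with SE bars, 3 libraries per group) for ETV6-NCOA2 (blue) and KAT6A-NCOA2 (red), filled where the adjusted p was below 0.05, from the deposited normalized counts. The filled points are the 12 members that passed with KAT6A-NCOA2, and no ETV6-NCOA2 point is filled although Adm lies at 1.42.

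Set directly against each other, the fusions showed no member past the test: limma called 0 of 34 between ETV6-NCOA2 and KAT6A-NCOA2, against 3.09% of tested genes, and edgeR (2.78%), DESeq2 (5.77%) and limma-voom (2.07%) also called 0. An unadjusted p below 0.05 was reached by 4 members, Hk3, Pgam1, Pgd and Pfkfb4, against 18.9% of tested genes. On the deposited scale the groups did not overlap for 7 members lower with ETV6-NCOA2 and for 0 higher ones (12.8% and 14.4% of tested genes). The 7 were Hk3, Pgam1, Pkm, Ldhb, Pdha1, Pgd and Pfkfb4. Group means were higher with ETV6-NCOA2 for 10 members and lower for 24 on that scale, where 48.5% of tested genes were higher. Scaled to total reads the split was 17 and 17, and Pdha1 changed sign (0.03). This split around 0 thus depended on the scaling. Members above the median of all tested genes numbered 10 of 34 under either scaling, a count that rescaling could hardly change. The replicate numbers were taken to pair these libraries, a pairing inferred from correlations in these same data. With the replicate block 1 member passed (7.15% of tested genes): Pfkfb4, lower with ETV6-NCOA2 by a log2 difference of -0.45 ± 0.08 (adjusted p = 0.0122), against ± 0.15 (adjusted p = 0.151) with no block. Scaled to total reads with no block, its difference was -0.34 ± 0.15 (limma adjusted p = 0.228). A difference between the fusions was thus not shown for the members called with KAT6A-NCOA2 alone. Pfkfb4 passed only with the block. That block was fitted over all 9 libraries, also the empty vector ones, for which pairing by number is not settled. For Hk1, Hk2, Tkt and Ndrg1 the log2 differences were 0.04 ± 0.12, 0.10 ± 0.12, 0.02 ± 0.08 and 0.03 ± 0.15.

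A wider set of 121 pathway genes, of which 106 were in the table, gave the setting of these members; like the members, the lists were drawn up with earlier results of these data known. With KAT6A-NCOA2 against the empty vector, 14 rose and 18 fell (31.7% of those tested passed, near the 25.4% of all tested genes). Over all tested genes 11.6% rose and 13.7% fell, the shares to set beside the count of each smaller list below. Among 9 genes of glucose and lactate transport, 1 rose and 2 fell. Slc2a1, the general glucose transporter, had 1757, 2434 and 1924 normalized counts in the empty vector, 2647, 2945 and 3136 with ETV6-NCOA2, and 3029, 3880 and 4013 with KAT6A-NCOA2. It rose by 0.84 ± 0.14 with KAT6A-NCOA2 (adjusted p = 0.00210) in all 20 alternatives, and its change of 0.52 ± 0.14 with ETV6-NCOA2 did not pass (adjusted p = 0.0676) although the libraries did not overlap. Slc2a6, a transporter of lysosomal membranes, fell by 1.42 (adjusted p = 0.00323), and Slc16a1, a lactate carrier, fell by 0.39 (adjusted p = 0.0160), a call lost without the libraries numbered 1 (adjusted p = 0.0741). Of 16 other enzymes of glycolysis and gluconeogenesis 2 passed: Galm, which interconverts glucose anomers, rose by 0.47 (adjusted p = 0.0152, or 0.0672 scaled to total reads), and Fbp1, of gluconeogenesis, was near 0 with KAT6A-NCOA2 (2.04, 0 and 0 normalized counts) after 19.1, 5.22 and 10.7 in the empty vector.

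Around pyruvate dehydrogenase, 1 of 12 genes rose and 3 fell. The kinase Pdk3 fell by 0.58 ± 0.09 (adjusted p = 0.00142), the phosphatase subunit Pdp2 by 0.60 ± 0.15 (adjusted p = 0.0155) and pyruvate carboxylase, Pcx, by 1.14 ± 0.25 (adjusted p = 0.00841), whereas the kinase Pdk2, named after its values were seen, rose by 0.36 ± 0.09 (adjusted p = 0.0158) but not when scaled to total reads (adjusted p = 0.143). Without the libraries numbered 1, Pdp2, Pcx and Pdk2 lost their calls (adjusted p = 0.0983, 0.0662 and 0.0560). Of 8 other pentose phosphate genes 1 rose and 2 fell: H6pd, the dehydrogenase of the endoplasmic reticulum, by 0.35 (adjusted p = 0.0162), Rpia, ribose phosphate isomerase, by -0.997 (adjusted p = 0.00107), and Prps1, which makes the nucleotide precursor from ribose phosphate, by -0.63 (adjusted p = 0.00311). Rpia fell from 854 ± 176 to 423 ± 39.9 normalized counts. H6pd lost its call when scaled to total reads and without the libraries numbered 1 (adjusted p = 0.162 and 0.0602).

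Of 9 HIF pathway regulators 0 rose and 2 fell, Hif3a, a HIF relative that can oppose HIF, by 1.73 ± 0.27 (adjusted p = 0.00179) and Cited2, which competes for HIF's coactivator, by 0.48 ± 0.12 (adjusted p = 0.0159). Among 29 other hypoxia targets 5 rose and 7 fell, with a median change of 0.12, so the list did not move one way. The 5 that rose, named after their values were seen, were Bnip3l, a mitophagy receptor (0.60, adjusted p = 0.00426), Hmox1, heme oxygenase (0.65, adjusted p = 0.00275), Hilpda, a lipid droplet protein (0.59, adjusted p = 0.0145), Mxi1, a Myc antagonist (0.46, adjusted p = 0.0131), and Bhlhe40, a repressor (0.31, adjusted p = 0.0241). The largest falls were those of Car12, a carbonic anhydrase (-2.24), Loxl2, a matrix cross-linking oxidase (-1.49), and Stc2, a secreted glycoprotein (-1.45). Mxi1 and Bhlhe40 lost their calls when scaled to total reads (adjusted p = 0.0564 and 0.204), and Bhlhe40 also without the libraries numbered 1. Of 12 glycogen genes 3 rose, among them Ugp2, which makes the sugar donor for glycogen, and Gbe1, the branching enzyme (0.45 and 0.40, adjusted p = 0.0161 and 0.0358), and both lost their calls when scaled to total reads. Among 6 regulators of glucose genes, Arrdc4 (1.23 ± 0.24, adjusted p = 0.00523) and Txnip (1.01 ± 0.25, adjusted p = 0.0161), arrestin relatives that limit glucose uptake, rose, and Myc, an activator of glycolytic and growth genes, fell by 0.75 ± 0.09 (adjusted p = 0.000541), from 1513 ± 136 to 896 ± 69.0 normalized counts.

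With ETV6-NCOA2, 0 of the wider genes rose and 5 fell (4.95% of those tested, against 2.84% of tested genes), among them Pdk3 by 0.45, Rpia by 0.67, Hif3a by 1.16 and Myc by 0.40, with adjusted p of 0.0270, 0.0357, 0.0499 and 0.0453. Hif3a lost its call in 12 of 20 alternatives, Myc and Rpia in 9 each and Pdk3 in 6, and all 4 lost it without the libraries numbered 1. Directly between the fusions, 4 passed (3.96% of those tested), all higher with ETV6-NCOA2. Stc2 had 343 ± 86.9 normalized counts with ETV6-NCOA2 and 99.7 ± 8.55 with KAT6A-NCOA2, a difference of 1.74 ± 0.19 (adjusted p = 0.00121) that held in all 20 alternatives. Ddit4, a stress-induced brake on growth signalling, differed by 0.55 (adjusted p = 0.0326), Pcx by 1.07 (adjusted p = 0.0452), and Fbp1 stood at 11.1 ± 1.49 against 2.04, 0 and 0 normalized counts. Pcx lost this call in 10 of 20 alternatives, edgeR and limma-voom among them, Ddit4 in 7 and Fbp1 in 5, and without the libraries numbered 1 Pcx and Ddit4 were each at an adjusted p of 0.147.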

How the data were processed

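Polyadenylated RNA was sequenced in 9 libraries, 3 per group. The authors deposited 1 table of normalized counts per gene, a signal with 1 factor per library, as its column names say. Per the submitters' processing notes, the tools were DESeq2, HTSeq, STAR 2.4.2a and cutadapt and the build GRCm38; order and settings are not given in the sources used here. Values were whole multiples of 1 read in every library (100% of values within 0.01 normalized counts), which gave reads back. As the table was not raw counts, limma 3.58.1 in R 4.3.3 was fitted across all 9 libraries on log2(value + 1), for the 13750 genes with at least 10 normalized counts in at least 3 libraries (3516 were left out). P-values were adjusted by Benjamini-Hochberg over all genes within a comparison, with 0.05 as threshold, and the fit was tested on simulated data. Alternatives were edgeR 4.0.16, DESeq2 1.42.0 and limma-voom on the recovered reads, TMM and total-read scaling, pseudocounts of 0.1 and 5, no filter, 6 libraries only, the replicate number as block, and leaving libraries out. Total-read scaling and leaving out the libraries numbered 1 were added after seeing the data. The members and lists were chosen with earlier results of these data known. Members that passed are given by library. From each wider list, the up to 3 largest changes past the test are named, except for some genes that are not reported here. The replicate number was taken to pair ETV6-NCOA2 with KAT6A-NCOA2 libraries, since deviations of same-numbered libraries from their group means correlated across genes at 0.301, 0.199 and 0.295. Gene positions came from GENCODE M21, where 16753 symbols (97% of the table) and all 34 members matched. Columns with no mapped sample numbered 0.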

Additional observations from a re-analysis of the deposited data

How the results depend on the processing

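Counts of members past the test moved as follows. For ETV6-NCOA2 against the empty vector (0 members) edgeR gave 1, DESeq2 5, a pseudocount of 5 gave 1, no filter gave 1, and leaving out the libraries numbered 1 gave 4, while TMM rescaling, limma-voom, a pseudocount of 0.1, total-read scaling and the 6-library fit gave 0. Leaving out 1 library at a time gave 0 to 9. For KAT6A-NCOA2 (12 members) leaving out 1 library at a time gave 1 to 19, and the other settings gave 10 to 17. For the direct comparison (0 members) leave-one-out gave 0 to 0, and the replicate block gave 1. Libraries numbered 1 of the empty vector and a fusion deviated together (correlations of 0.313 with ETV6-NCOA2 and 0.387 with KAT6A-NCOA2). Those numbered 2 and 3 did so less or not at all (0.0468 and -0.0757 with ETV6-NCOA2, 0.172 and -0.0287 with KAT6A-NCOA2). Not every library correlated best with its own number. Whether the numbers pair these samples is therefore not settled, and the replicate block was kept as an alternative. It gave 8 members with ETV6-NCOA2 (9.13% of tested genes) and 17 with KAT6A-NCOA2 (30.1%). The causes were not tested. Counts were low for Adm, with 21 reads in its lowest library, and for Fbp1, listed at 0 in KAT6A-NCOA2 libraries 2 and 3, whose fold change depends on the pseudocount.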
